A study of Rattus norvegicus with 17 samples.

Results

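Endothelium captured from the common femoral artery was compared with endothelium from the superficial epigastric vein that had kept venous flow, in 9 of the 17 arrays of a rat study of the arteriovenous fistula (AVF). The members were chosen by the sample source names: 3 arrays hold femoral artery endothelium without pathology, and 6 hold epigastric vein endothelium without pathology after ligation surgery. In the AVF operation the epigastric vein is joined to the femoral artery, a rat model of the access used for dialysis. The femoral artery (n = 3) carried arterial flow, came from AVF surgery and was free of pathology. The venous-flow vein (n = 6) lay beyond the ligature, carried venous flow and was likewise free of pathology. Its source names give ligation surgery while its descriptions give AVF surgery, and the protocol states that each AVF operation included this ligation, so the surgery named, the vessel and the flow cannot be told apart in the comparison. Both vessels were taken 13 to 14 days after surgery. Each RNA sample pooled 10 laser captures from 10 µm sections, and 50 ng of it was amplified and labelled with cyanine 5. The design text counts 6 rats for all 17 regions but no label links a region to its rat. The sample titles carry a different number for each array, after the letters PL for the veins and AVF for the arteries. No label used here says what PL or the number stands for. If the count of 6 rats holds, some arrays share an animal, and p-values that treat the regions as independent may be too small. Strain, sex and age are not given in the labels.

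Arterial and venous endothelial cells differ in a programme that is set up in the embryo and maintained by flow. Notch signalling, ephrin B2, the connexins of arterial gap junctions and SOX factors mark the arterial side, while the nuclear receptor Nr2f2 (COUP-TFII) represses Notch and marks veins. Arterial shear stress also regulates genes of vasodilation, clotting and leukocyte adhesion, and endothelium takes up and passes on lipids through receptors such as Scarb1 and, in capillaries, through proteins controlled by the transcription factors Meox2 and Tcf15. Gja5, Meox2 and Scarb1 are the genes given with the comparison as its markers.

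The 2 deposited forms of these data name the arrays differently, so the main results are given for both. The scanner files of femoral arteries 1, 2 and 3 have the ranks of the value table columns of venous-flow veins 4, 5 and 6. Those of venous-flow veins 2, 3 and 4 have the ranks of the table's femoral arteries 1, 2 and 3, and those of venous-flow veins 1, 5 and 6 match the table's stenotic side branches 1, 2 and 3. In each case the rank correlation was 1.0000 over 10000 probe spots, and no source used here settles which naming is right. Values below follow the scanner files unless the value table is named. Array numbers are those of the scanner files, except where an array is called the table's or belongs to the value table samples. The 2 comparisons share 6 arrays in exchanged roles, each counted as artery in one form and as vein in the other, so they are not independent of each other. All 9 arrays carry a background column that is an average over 2 further arrays, yet signal minus this background keeps the ranks of the value table. The median of that difference was between 28.5 and 56.3 intensity units. Femoral artery 1 was the dimmest array and stood apart: its rank correlation with the other femoral arteries was 0.533 and 0.577, while those 2 correlated at 0.839. The array that the value table names venous-flow vein 3, stenotic side branch 3 of the scanner files, stood apart too, with rank correlations of 0.0504 to 0.571 with the table's other veins. Leaving out femoral artery 1 (scanner files) or this vein (value table samples) turned the direction of some named values or moved them by over 1.5 times. Many such values are also given without that array, but a value given alone was not thereby shown to be stable. Leaving out the table's vein 3 turned the sign of the value table difference for 24 of 170 named genes. Levels are log2 signal after background correction and quantile normalization. The offset of the correction puts a floor of 5.65 under them, the median level was 6.12, and 43.2% of features had both group means within 0.5 of that floor.

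No gene or other feature differed between femoral artery and venous-flow vein at an adjusted p under 0.05, in either form. Of 9446 features, 0 (0.0%) were called by limma with Benjamini-Hochberg adjustment, and the smallest adjusted p was 0.448 with the scanner files and 0.533 with the value table samples. At an unadjusted p under 0.05 there were 464 features (4.91%) with the scanner files, 252 (2.67%) of them higher and 212 (2.24%) lower in the artery. The value table samples gave 148 (1.57%), of which 62 (0.656%) were higher and 86 (0.91%) lower, and leaving out femoral artery 1 gave 129 (1.37%), with 97 (1.03%) higher and 32 (0.339%) lower. The arrays of both groups did not overlap in 211 features (2.23%). All 3 femoral arteries lay above all 6 veins for 97 features (1.03%) and below all of them for 114 (1.21%). In the value table samples 98 features (1.04%) did not overlap, 26 (0.275%) of them above and 72 (0.762%) below. The shares given here at an unadjusted p under 0.05 did not exceed the 0.05 that this threshold passes when no feature differs. With 3 arrays against 6, some features also separate by chance alone. A lack of overlap in a gene named below is therefore no evidence of a difference by itself. The differences of single genes below are therefore measured values that did not pass the test, and the adjusted p of the named genes ran from 0.858 to 0.996 with the scanner files. Of 19 named genes with more than 1 probe, 9 had probes of both signs, most often with the dimmer probe near the floor. Values are those of the brightest probe.

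Gja5 encodes Cx40, a connexin and gap junction protein of arterial endothelium and of the cardiac conduction system. Its level was 8.17, 9.56 and 8.62 in femoral arteries 1, 2 and 3. In venous-flow veins 2, 3 and 4, which the value table names femoral artery, it was 8.25, 8.73 and 7.91, and in venous-flow veins 1, 5 and 6 it was 6.30, 7.44 and 8.19. Femoral arteries 2 and 3 lay above veins 1, 5 and 6 and femoral artery 1 just below vein 6, while the arteries and veins 2 to 4 overlapped. The group means were 8.79 ± 0.71 and 7.80 ± 0.85 (SD, n = 3 and 6), a log2 difference of 0.98 ± 0.43 (SE), or 1.97-fold, which limma's test did not call (adjusted p = 0.858). In the value table samples limma gave a difference of 0.55 ± 0.60 (adjusted p = 0.998), or 0.31 without the table's vein 3. Without femoral artery 1 the scanner files gave 1.29. The 6 arrays that either form names femoral artery ran from 7.91 to 9.56, and the other 11 arrays of the series from 6.27 to 8.19. The ranges overlap between 7.91 and 8.19. Under either naming 3 of those 6 arrays are venous-flow veins, so their range describes no single group. Gja5 had its higher mean in the artery in both forms.

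Meox2 is a homeobox transcription factor of mesoderm that in endothelium holds back the cell cycle and takes part in fatty acid uptake. It lay at 5.89, 5.87 and 5.87 in the 3 femoral arteries, all near the floor. Venous-flow veins 1, 5 and 6 had 8.11, 9.56 and 8.28, and veins 2, 3 and 4 had 6.54, 5.81 and 6.57. Of the veins only vein 3 lay as low as the arteries. By limma the log2 difference was -1.60 ± 0.61 (SE, adjusted p = 0.858) with the scanner files and -0.12 ± 0.39 (adjusted p = 0.998) with the value table samples. No fold is given because the artery mean lies near the floor.

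Scarb1 is the scavenger receptor that binds high-density lipoprotein and mediates transport of lipoprotein across endothelium. Its levels were 5.94, 6.69 and 6.15 in the femoral arteries, 7.79, 8.27 and 8.53 in venous-flow veins 1, 5 and 6, and 6.55, 6.25 and 6.51 in veins 2, 3 and 4. As for Meox2, the vein trio named stenotic side branch in the value table stood high, and here the other trio lay within the range of the arteries. The log2 difference was -1.06 ± 0.44 (SE), 2.09-fold lower in the artery, and -0.31 ± 0.29 with the value table samples. Its adjusted p was 0.858 and 0.998. The difference of veins 1, 5 and 6 from veins 2 to 4 was 1.76 for Scarb1 and 2.34 for Meox2, and that of the femoral arteries from veins 2 to 4 was -0.18 and -0.43. Over all features, veins 1, 5 and 6 lay above veins 2 to 4 without overlap in 805 of 9446 (8.52%) and below them in 451 (4.77%).

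**Figure D1:**
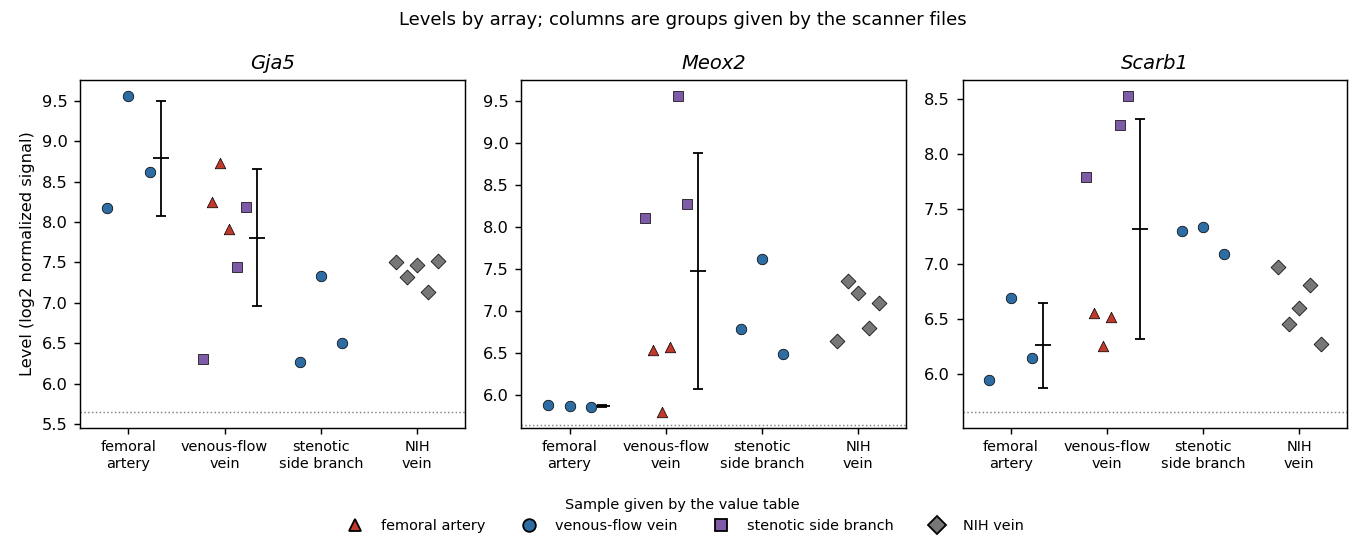
Levels of Gja5, Meox2 and Scarb1 (log2 normalized signal, vertical axis) on each of the 17 arrays, in columns by the group that the scanner files give and with symbols by the group that the value table gives. Black bars are the mean and SD of the 3 femoral arteries and the 6 venous-flow veins, the dotted line is the floor of 5.65, and the vein column splits into low triangles and high squares for Meox2 and Scarb1.

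The promoters of Gja5 and Meox2 are shown as the regulatory sequences of the genes with the opposite differences. Each run holds the 250 bases before the annotated start of the gene on the plus strand of GRCr8, from RefSeq, at chr2:187290977-187291226 for Gja5 and at chr6:59583775-59584024 for Meox2. Capitals mark the core letters CACCC of the KLF family, which includes the flow-induced factors Klf2 and Klf4, and TGGGAA of the Notch effector RBPJ, on either strand.
Gja5: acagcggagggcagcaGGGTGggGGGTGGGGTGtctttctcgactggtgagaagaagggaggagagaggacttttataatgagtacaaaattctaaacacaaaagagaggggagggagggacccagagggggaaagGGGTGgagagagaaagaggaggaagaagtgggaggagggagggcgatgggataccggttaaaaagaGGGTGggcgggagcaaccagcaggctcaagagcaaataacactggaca
Meox2: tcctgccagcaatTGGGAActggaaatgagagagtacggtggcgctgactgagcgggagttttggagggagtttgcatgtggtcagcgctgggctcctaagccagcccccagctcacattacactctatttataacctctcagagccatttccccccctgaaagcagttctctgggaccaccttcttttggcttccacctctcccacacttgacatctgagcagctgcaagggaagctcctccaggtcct
The Gja5 window holds CACCC 5 times, each on the minus strand, with a pair of these sites directly adjoining, and TGGGAA 0 times. The Meox2 window holds TGGGAA once and CACCC 0 times. Of 33469 promoter windows of this length, 49.2% hold CACCC and 22.1% hold TGGGAA. Such matches describe the letters only.

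Genes of arterial identity had higher and lower means in equal number. Of 48 listed genes 16 were measured, 8 with a higher and 8 with a lower mean in the artery, none past the test, and their median log2 difference was 0.06 beside 0.02 over all features. Both group means were near the floor for 7 of the 16. In the value table samples 5 were higher and 11 lower (median -0.06, all features -0.03).

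Among the receptors and ligands of this list, the Notch ligand Jag1 had a log2 difference of -0.28 ± 0.28 (SE), the chemokine receptor Cxcr4 0.14 ± 0.10 and its ligand Cxcl12 -1.09 ± 0.67. Cxcl12 lay at 6.07, 6.02 and 5.99 in the femoral arteries, near the floor, and at 5.81, 7.09 and 8.49 (lowest, median and highest) in the veins. The veins were the more variable group here, and vein 3 lay below the arteries. For Cxcl12 the value table samples gave -0.06 (-0.24 without the table's vein 3). The transcription factors Sox18 and Gata2, which act in arterial and general endothelial programmes, had differences of 0.15 ± 0.17 and 0.18 ± 0.43. Gja4 (Cx37), the partner of Gja5 in arterial junctions, had 0.22 ± 0.24. Clu, which encodes the secreted chaperone clusterin, and Mgp, an inhibitor of BMP signalling and of calcification in arteries, had 0.54 ± 0.41 and 0.44 ± 0.67. When femoral artery 1 was left out, the differences of Jag1, Cxcr4, Gata2, Gja4 and Mgp were -0.10, -0.03, 0.57, 0.37 and 0.79. For Mgp the value table samples gave 0.50, which rested on the table's vein 3 (0.12 without it), and for Clu -0.27 (-0.51 without it). The other 7 measured members ran from -0.14 (Efnb1) to 0.19 (Vegfa, 0.10 without femoral artery 1).

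Venous identity genes had lower means in the artery for 9 of 11 with a value (of 35 listed), with a median of -0.14, and for 7 of 11 with the value table samples (median -0.24). The scanner files without femoral artery 1 gave 7 of 11, with a median of -0.04. Over all features 5520 of 9446 were lower with the value table samples and 5272 without femoral artery 1. None of the 11 passed the test. Nr2f2 itself lay near or little above the floor on all 9 arrays, at 5.98, 5.74 and 5.95 in the arteries and at 5.81, 6.06 and 6.24 (lowest, median and highest) in the veins, a difference of -0.14 ± 0.12. This defining venous gene was thus dim in both vessels. Vcam1, an adhesion receptor for leukocytes, had 6.70, 8.68 and 8.26 in the arteries against 6.65, 8.12 and 10.22 (lowest, median and highest) in the veins, and both groups overlapped widely (difference -0.45 ± 0.78, and 0.14 without femoral artery 1). Aplnr, the apelin receptor of veins and sprouting vessels, had 8.05, 6.68 and 5.96 in the arteries, with femoral artery 1 highest of all 9 arrays, and its difference went from 0.56 to -0.01 without that array. The other 8 measured members ran from -0.86 (Icam1, -0.57 without femoral artery 1) to 0.08 (Tmem252, 0.41 without femoral artery 1).

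Connexins and junction genes had the largest positive median of the endothelial lists, 0.35 over 8 measured members, 5 higher and 3 lower in the artery. Their median was 0.21 with the value table samples and 0.29 without femoral artery 1, and leaving out 1 array at a time gave -0.08 to 0.46. Beside Gja5, Gjd3, a connexin described mainly in the heart and nervous system, had 9.49, 9.29 and 8.86 in the femoral arteries and 7.23, 8.67 and 9.47 (lowest, median and highest) in the veins. Its difference was 0.67 ± 0.47 and, with the value table samples, 0.87. Gja1 (Cx43), which endothelium uses at sites of disturbed flow, had -0.27 ± 0.51 (0.20 without femoral artery 1), and Cdh13 (T-cadherin, a receptor for adiponectin) had -0.50 ± 0.37. Cdh13 was low on femoral artery 1, at 6.05 against 7.48 and 7.73, and without that array its difference was 0.02.

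Genes of lipid uptake and transport mostly had lower means in the artery: 12 of 14 with a value (of 45 listed) were below the veins, Meox2 and Scarb1 among them, with a median of -0.46. None passed the test, and 2 had an unadjusted p under 0.05 (all features, 4.91%). Without femoral artery 1, 9 of the 14 were lower and 5 higher, with a median of -0.32. Over all features 5272 of 9446 were then lower. In the value table samples 7 members were higher and 7 lower, and the median was -0.02. Without the table's vein 3, 9 were higher and 5 lower, with a median of 0.03. Apoe, the apolipoprotein that carries cholesterol between cells, was at 5.89, 5.98 and 5.82 in the femoral arteries and at 6.51, 6.67 and 7.14 (lowest, median and highest) in the veins. All 3 arteries lay below all 6 veins, with a gap of 0.53 between the groups and a difference of -0.83 ± 0.39 (SE). It was -0.29 with the value table samples and 0.18 when the table's vein 3 was left out. Abcg1, which exports cholesterol to lipoprotein, had -0.60 ± 0.46. Stard3, which moves cholesterol out of late endosomes, had -0.67 ± 0.56, and Acsl1, which activates fatty acids, -0.45 ± 0.34. For these 3 genes the differences without femoral artery 1 were -0.35, -0.41 and -0.29. With the value table samples they turned to 0.40, 0.52 and 0.15, and were 0.29, 0.27 and 0.03 without the table's vein 3. The genes of the fatty acid binding proteins Fabp5 and Fabp1 had -0.47 ± 0.56 and 0.55 ± 0.59, and 0.18 and 1.10 without femoral artery 1, so their opposite signs rested on that array. The enzyme of cholesterol synthesis Hmgcs1 and its regulator Insig1 had 0.00 and -0.01, slightly negative values that are counted among the 12. Without femoral artery 1 they had 0.36 and 0.59. The other 4 measured members ran from -0.60 (Dbi) to 0.17 (Acsl4, -0.12 without femoral artery 1).

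The median difference of all features went with their signal level. Features with a mean level up to 7 had a median difference of 0.02 (level up to 6, 3054 features) and 0.02 (6 to 7, 4557 features). It was -0.21 from 7 to 8 (1050 features), -0.31 from 8 to 10 (621 features) and -0.48 above 10 (164 features). In the value table samples the same bins ran from -0.05 to 0.07. Without femoral artery 1 the 3 upper bins had -0.08, -0.16 and -0.41. Bright genes as a whole therefore had lower means in the arteries of the scanner files, and the lists of bright genes below are to be read against these medians.

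**Figure D2:**
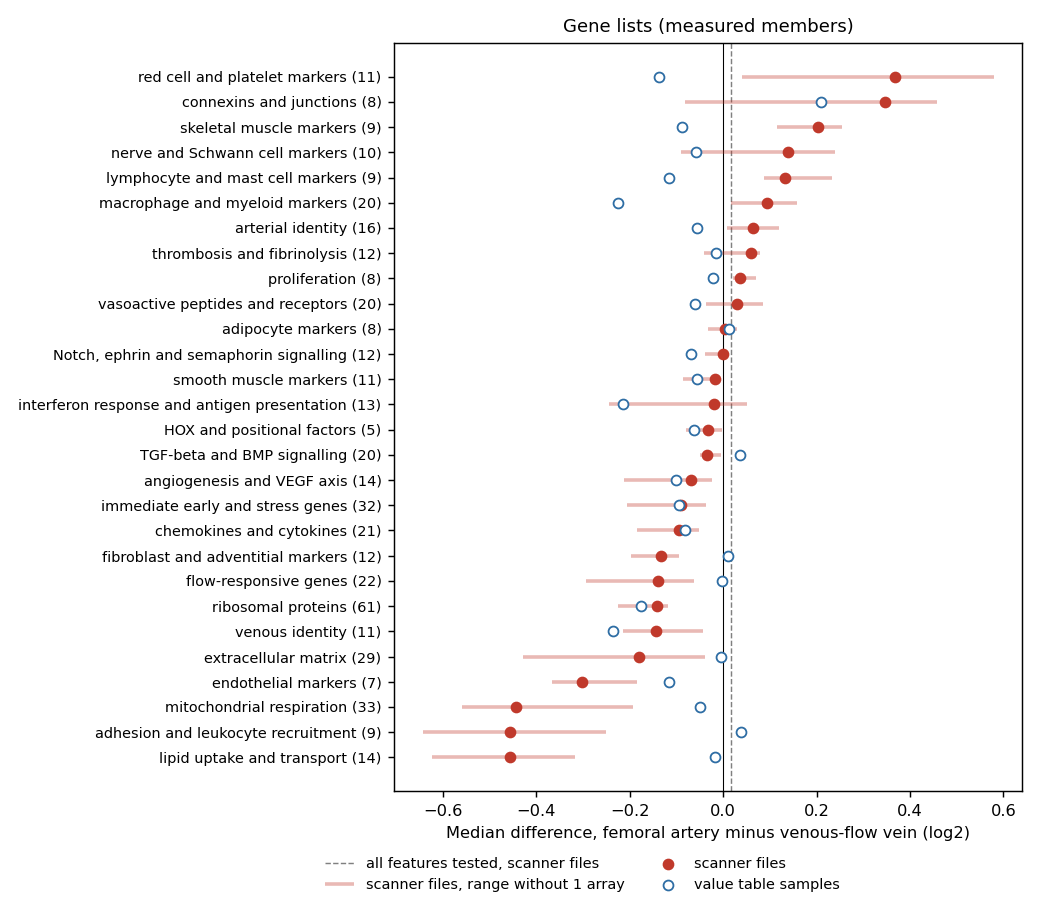
Median log2 difference, femoral artery minus venous-flow vein, of the 28 gene lists with at least 4 measured members (number in brackets). Filled points are the scanner files, with bars for the range when 1 array is left out, open points the value table samples, and the dashed line the median of all features; lipid, adhesion and mitochondrial genes lie lowest and red cell markers highest with the scanner files, and the open points of these lists lie nearer to 0 or on its other side.

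Adhesion and endothelial surface genes had lower means in the artery with the scanner files. All 9 measured members of the adhesion list were lower (median -0.46, without femoral artery 1 -0.25), none of them past the test, while with the value table samples 5 were higher and 4 lower (median 0.04, and -0.02 without the table's vein 3). Icam1, a leukocyte adhesion receptor induced by cytokines, was at 5.81, 6.91 and 6.44 in the arteries and at 6.50, 7.0 and 8.43 (lowest, median and highest) in the veins (difference -0.86 ± 0.50, and -0.57 without femoral artery 1). The integrin chains Itga1, a collagen receptor, and Itgb4, a laminin receptor, had -1.44 ± 0.65 and -1.24 ± 0.73. For both, veins 3 and 4 lay among the femoral arteries and the other veins above all of them. Itga1 was at 5.95, 6.48 and 6.40 in the arteries and at 6.02 and 6.27 in veins 3 and 4, against 7.97, 9.37, 8.87 and 7.82 in veins 1, 2, 5 and 6. With the value table samples Icam1, Itga1 and Itgb4 turned to 0.20, 0.33 and 0.42. Without the table's vein 3 they had 0.22, 0.44 and 0.24.

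Of 34 general endothelial markers 7 were measured, with neither Pecam1 nor Cdh5 among the matched probes, so the capture is checked here by few genes. Their median was -0.30, and 5 had a lower mean in the artery. It was -0.18 without femoral artery 1, -0.12 with the value table samples (3 higher, 4 lower) and -0.01 with these but without the table's vein 3. Kdr, the main receptor for VEGF-A, was at 5.87, 6.29 and 6.01 in the femoral arteries, near or little above the floor, and at 5.83, 7.06 and 7.74 (lowest, median and highest) in the veins, a difference of -0.88 ± 0.40. For Kdr the value table samples gave -0.38 (-0.01 without the table's vein 3). Thbd, thrombomodulin, the surface cofactor that turns thrombin to anticoagulant use, was at 7.50, 8.69 and 7.94 in the arteries, at 10.35, 11.39 and 8.76 in veins 1, 5 and 6 and at 8.44, 7.61 and 7.26 in veins 2 to 4. It lay well above the floor on all 9 arrays, and its difference of -0.93 ± 0.74 was smaller than the spread of the veins, whose SD was 1.61. For Thbd the value table samples gave 0.17 (0.05 without the table's vein 3). Clec14a, a lectin of endothelial junctions, and Procr, the endothelial protein C receptor, had means of 5.76 and 6.14 in the artery and 6.06 and 6.26 in the vein, all near the floor or little above it.

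Genes that respond to flow gave no common direction. Of 22 measured members 8 were higher and 14 lower in the artery (median -0.14; value table samples 11 and 11, median 0.00). The median was -0.06 without femoral artery 1, and the value table samples without the table's vein 3 gave -0.06. Ptgis, prostacyclin synthase, the enzyme of a vasodilator and platelet inhibitor, was at 6.24, 6.52 and 7.08 in the femoral arteries and at 5.73, 5.87 and 6.59 (lowest, median and highest) in the veins. Only vein 3, at 6.59, lay among the arteries, and the difference was 0.65 ± 0.19 with an unadjusted p of 0.00346. The value table, which names vein 3 femoral artery, gave -0.10 (-0.16 without the table's vein 3). Ddah1, which degrades inhibitors of nitric oxide synthase, was lower in all 3 arteries (6.45, 6.55 and 6.36) than in all 6 veins (lowest 6.78), with -0.79 ± 0.68. The value table samples turned the Ddah1 difference to 0.76 (0.59 without the table's vein 3). The antioxidant genes Nfe2l2 and Sod1 had -0.74 ± 0.38 and -1.18 ± 0.62, -0.45 and -0.52 without femoral artery 1, and 0.05 and 0.10 with the value table samples (0.20 and 0.48 without the table's vein 3). Cx3cl1, a membrane-bound chemokine of endothelium, was at 6.79, 8.76 and 7.85 in the arteries and at 6.47, 7.05 and 8.04 (lowest, median and highest) in the veins, so that femoral artery 2 stood highest and femoral artery 1 within the veins. Npr1, the receptor of atrial natriuretic peptide, had -0.84 ± 0.45, and -0.07 with the value table samples (-0.08 without the table's vein 3).

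Of the named genes Col1a2, a chain of fibrillar collagen made by fibroblasts and mural cells, had the largest difference with the scanner files. It was at 8.91, 11.36 and 9.72 in the femoral arteries and at 10.92, 12.27 and 13.33 (lowest, median and highest) in the veins. Femoral arteries 1 and 3 lay below all veins, and femoral artery 2 lay among them. The difference was -2.21 ± 0.72 (SE), 4.62-fold lower in the artery, with an unadjusted p of 0.00789 and an adjusted p of 0.858. A second, dim probe of Col1a2 (mean level 6.20) had -0.10. The bright probe had -1.66 without femoral artery 1 and 0.30 with the value table samples (0.91 without the table's vein 3). Bgn (biglycan, a matrix proteoglycan) had -1.64 ± 0.83, Mmp14 (a membrane-bound collagenase) -1.20 ± 0.63, and Ctsl (the lysosomal protease cathepsin L) -1.62 ± 0.59, with all 3 arteries below all 6 veins for Ctsl. Bgn had -0.96 and Mmp14 -0.66 without femoral artery 1. With the value table samples Bgn, Mmp14 and Ctsl had 0.56, 0.38 and -0.13. Without the table's vein 3 these were 0.96, 0.92 and 0.36. Of 29 measured matrix genes 20 were lower in the artery (median -0.18), and with the value table samples 15 were (median 0.00, and 0.12 without the table's vein 3). When femoral artery 1 was left out, 16 were lower and 13 higher (median -0.04). Fibroblast and adventitial markers, which share Col1a2 with this list, had a median of -0.13 (8 of 12 lower). Their summed linear level, the sum over members of the signal before log2, ran from 2992 to 7835 in the femoral arteries and from 5025 to 19189 in the veins, while Dcn and Thy1, which define fibroblasts, lay near the floor in both groups. In such captures fewer cells of a type and less RNA per cell cannot be told apart, and the part of other cells in these differences was not tested.

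Blood and skeletal muscle markers mostly had higher means in the artery with the scanner files, none past the test. All 11 measured red cell and platelet markers had higher means in the artery (median 0.37), their summed linear level ran from 8839 to 56966 in the femoral arteries and from 2039 to 39068 in the veins, and the median was 0.04 without femoral artery 1 and -0.14 with the value table samples (-0.21 without the table's vein 3). Hbb-b1, a beta chain of haemoglobin, was among the brightest features, at 15.75, 14.10 and 12.99 in the femoral arteries and at 10.38, 12.84 and 15.21 (lowest, median and highest) in the veins. Its difference was 1.50 ± 0.96, 0.76 without femoral artery 1, and -1.49 with the value table samples. Alas2, the enzyme of haem synthesis in red cells, was at 7.54, 6.04 and 6.32 in the arteries, so that femoral artery 1 alone stood out. Skeletal muscle markers had a median of 0.20 (7 of 9 higher, without femoral artery 1 0.23, value table samples -0.09), with Mb (myoglobin) at 7.44, 6.83 and 7.04 in the arteries and 6.53, 6.64 and 6.88 (lowest, median and highest) in the veins. Their summed linear level ran from 976 to 1898 in the femoral arteries and from 808 to 1185 in the veins. Smooth muscle markers had a median of -0.02 and a summed level from 2704 to 7312 in the femoral arteries and from 3934 to 33446 in the veins. Tagln, which defines smooth muscle, was near the floor in both groups, and the bright member Tpm2 (a tropomyosin) was at 9.97, 11.46 and 11.70 and at 9.61, 12.04 and 14.90 (lowest, median and highest).

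Macrophage markers had a median of 0.09 (14 of 20 higher) with the scanner files, 0.02 (10 of 20 higher) without femoral artery 1, and -0.23 (3 of 20 higher) with the value table samples. Lymphocyte and mast cell markers had 0.13 and -0.12, nerve markers 0.14 and -0.06, and adipocyte markers 0.00 and 0.01. The nerve markers turned to -0.09 (3 of 10 higher) and the adipocyte markers to -0.03 without femoral artery 1. The summed linear level of the macrophage list ran from 3065 to 4967 in the femoral arteries and from 2020 to 5796 in the veins. Cd68, a lysosomal protein of macrophages, was at 7.23 ± 0.31 in the arteries and 6.95 ± 0.70 in the veins (SD, n = 3 and 6), and C1qa, a complement component of macrophages, was near the floor in both. Of lymphatic and mesothelial markers only Msln (mesothelin) was measured, at 5.98, 6.67 and 6.25 in the arteries and up to 6.87 in the veins.

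The genes with the smallest unadjusted p are shown by array. The 12 with the higher mean in the artery had differences from 0.23 to 1.01 (unadjusted p 7.37e-04 to 0.0101), and 9 of them had a group mean near the floor. Nrtn, which encodes the neurotrophic factor neurturin, had the smallest p, at 6.86, 6.62 and 6.91 in the arteries against 5.86, 6.02 and 6.53 (lowest, median and highest) in the veins, without overlap (difference 0.68 ± 0.16). Cdkn2d, an inhibitor of cyclin-dependent kinases, was at 7.74, 6.43 and 6.69 against 5.80, 5.98 and 6.39, with femoral artery 1 far above the other 2. Fxyd2, a regulator of the sodium pump, had 7.90, 6.38 and 6.90 against 6.17, 6.27 and 6.51, again with femoral artery 1 highest. On the other 8 arrays the 12 differences ran from 0.13 to 0.83, and with the value table samples from -0.44 to -0.10. The table names these 3 arrays venous-flow vein.

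The 12 genes with the lower mean had differences from -2.21 to -0.44 (unadjusted p 0.00265 to 0.0177), and 1 had a group mean near the floor. Sirpa, the receptor of CD47 on myeloid and other cells, was at 6.43, 7.28 and 6.54 in the femoral arteries and at 7.31, 7.75 and 8.42 (lowest, median and highest) in the veins. All arteries lay below all veins, though by only 0.03, with a difference of -1.01 ± 0.28 or 2.02-fold. Smarcd2, a subunit of the SWI/SNF chromatin remodeller, had -0.79 ± 0.23 (-0.46 without femoral artery 1), and Pelo, a factor that rescues stalled ribosomes, -0.98 ± 0.30. Apex1, an enzyme of base excision repair, had 6.46, 6.68 and 6.52 against 6.85, 6.93 and 7.28, a small difference of -0.44 ± 0.16 with groups that did not overlap. Arf1, a small GTPase of Golgi transport, and Calm3, one of the calmodulin genes, had -0.46 ± 0.17 and -0.69 ± 0.26. Without femoral artery 1 the 12 differences ran from -1.66 to -0.33, and with the value table samples from -0.13 to 0.30 (0.10 to 0.91 without the table's vein 3).

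**Figure D3:**
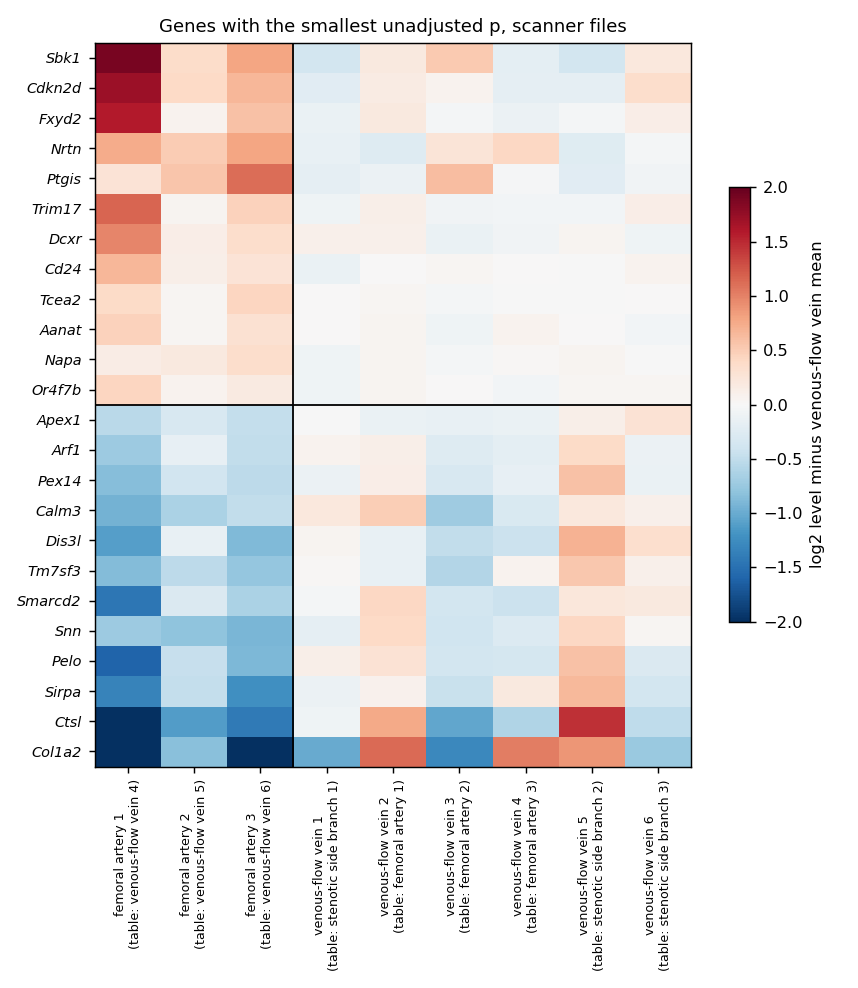
Level of the 12 higher and 12 lower genes with the smallest unadjusted p, as the log2 level minus the mean of the 6 venous-flow veins (colour, limited to 2 either way), on the 3 femoral arteries and 6 veins of the scanner files, with the value table's name of each array in brackets. Femoral artery 1 carries the deepest colours in most rows, and femoral artery 2 the palest of the 3 arteries.

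Genes were also ranked by the gap between groups that did not overlap, as was the case for 2.23% of all features. Of the 6 genes with the widest such gaps above the veins, Cryl1 (a crystallin-related dehydrogenase) was at 6.74, 6.34 and 6.41 against at most 6.12 in the veins, and Hspb1, a small heat shock protein, at 6.38, 6.39 and 6.78 against at most 6.25. Acadvl, the first enzyme of long-chain fatty acid oxidation, had 6.64, 6.57 and 6.51 against at most 6.43. These gaps were between 0.06 and 0.22, at levels little above the floor. Below the veins 5 gaps were between 0.22 and 0.53, with Apoe first. Serping1, the inhibitor of complement C1, was at 7.59, 8.06 and 8.02 against 8.46, 8.77 and 9.89 (lowest, median and highest), a difference of -1.01 ± 1.08. Snn (stannin) was at 6.32, 6.24 and 6.13 against 6.65, 6.98 and 7.46. The value table samples gave 0.07 for Serping1 and 0.23 for Snn, and -0.46 and 0.46 without the table's vein 3. On that array Serping1 lay at 5.89, near the floor, against 7.59 to 11.10 on the table's other veins.

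With the samples of the value table other genes came first. Gcgr, the glucagon receptor gene, had the smallest p (5.64e-05, adjusted 0.533), at 6.34, 6.92 and 6.70 on the 3 arrays that the table names femoral artery and with a difference of 0.68 ± 0.12. It lay at 5.91, 6.18 and 5.96 on the femoral arteries of the scanner files. Myh10, a nonmuscle myosin heavy chain, had 9.91, 8.12 and 8.16 on the table's arteries and a difference of 1.63 ± 0.68, against -1.36 with the scanner files. Tsc22d3, a glucocorticoid-induced transcription regulator, was at 7.33, 7.40 and 7.37 on the table's arteries, below all 6 of its veins (difference -0.75 ± 0.20). Oas1a, an interferon-induced sensor of viral RNA, had -1.18 ± 0.40 and likewise did not overlap, and Timp1, an inhibitor of matrix proteases, had -1.21 ± 0.45. The interferon and antigen presentation list had a median of -0.22 there (-0.14 without the table's vein 3) and -0.02 with the scanner files, but -0.25 with these when femoral artery 1 was left out. In the scanner files Tsc22d3, Oas1a and Timp1 had -0.04, 0.06 and 0.46, and 0.08, 0.07 and 0.85 without femoral artery 1.

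Of 2878 genes with a symbol, 73 had a mean higher in the artery by at least 0.5 whichever form names the arrays, and 28 had one lower by as much. When the value table samples also had to meet this without the table's vein 3, 30 and 9 remained. Described here are the first 10 in each direction by the smaller of both differences, so their shared direction was fixed by the choice. The choice also bears on how closely their levels follow each other. The 10 higher genes were Abo3, Chct1, Cyb5a, Dnm2, Lsamp, Pak3, Ptprs, Slc30a3, Slc44a4 and St6gal1, with differences from 1.00 to 1.31 (scanner files) and from 1.00 to 1.44 (value table samples). Without the table's vein 3, on which they were low, the latter ran from 0.19 to 0.88. Their functions have little in common, from cytochrome b5 (Cyb5a) and the membrane-cutting GTPase dynamin 2 (Dnm2) to a zinc transporter (Slc30a3) and a sialyltransferase (St6gal1). Their levels followed one profile over the arrays: pairwise Pearson correlations over all 17 arrays, which share the quantile normalization, ran from 0.838 to 0.997. The mean level of the 10 was 10.21, 11.51 and 11.89 in femoral arteries 1, 2 and 3. It was 10.47, 8.75, 11.45, 11.71, 6.85 and 11.34 in veins 1 to 6. Veins 5 and 2 were low and the other veins lay within the range of the arteries. In all, 138 features correlated with the mean of these genes above 0.95, 32 of them with a symbol. These counts include the genes that make up the mean, except St6gal1. C3ar1, Tgfbr1 and Prph of the gene lists are also among them. Gjd3 and the transcription factor Snai1 correlated with that mean at 0.852 and 0.859, and Gja5 at 0.508.

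Reported of the lower genes are 9, Ccl6, Cryab, Ctsd, Lgals3, Mt1, Ndrg2, Rps29, Tpm2 and Txnip, with differences from -1.20 to -0.71 and, with the value table samples, from -1.30 to -0.64 (-0.83 to -0.10 without the table's vein 3). Leaving out femoral artery 1 gave -1.07 to -0.40 with the scanner files. None passed the test in either form. Txnip, a glucose-induced inhibitor of thioredoxin, was at 6.28, 7.0 and 6.81 in the femoral arteries, at 6.46, 6.83 and 6.33 in veins 2 to 4 and at 8.32, 9.37 and 8.88 in veins 1, 5 and 6. Ndrg2, a stress-regulated gene of the NDRG family, was at 7.12, 8.29 and 9.44 in the femoral arteries. In veins 2 to 4 it was at 6.56, 7.67 and 8.09, and in veins 1, 5 and 6 at 11.29, 12.91 and 10.35. For Txnip and Ndrg2 alike the vein trio that the value table names stenotic side branch stood above the other 6 arrays. In 5 of the 9 genes the 2 vein trios did not overlap. Over all features this trio lay above the other without overlap in 8.52% and below it in 4.77%, and the choice of the 9 genes bears on their count. Lgals3, galectin 3, a lectin of macrophages and activated endothelium, had -1.20 ± 1.05 and -1.30 in the 2 forms, and Mt1, a metal-binding stress protein, -1.07 ± 0.80 and -0.94. Without femoral artery 1 they had -0.71 and -0.52, and without the table's vein 3 -0.49 and -0.77. The small heat shock protein gene Cryab and the lysosomal protease gene Ctsd had -0.96 and -0.72.

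**Figure D4:**
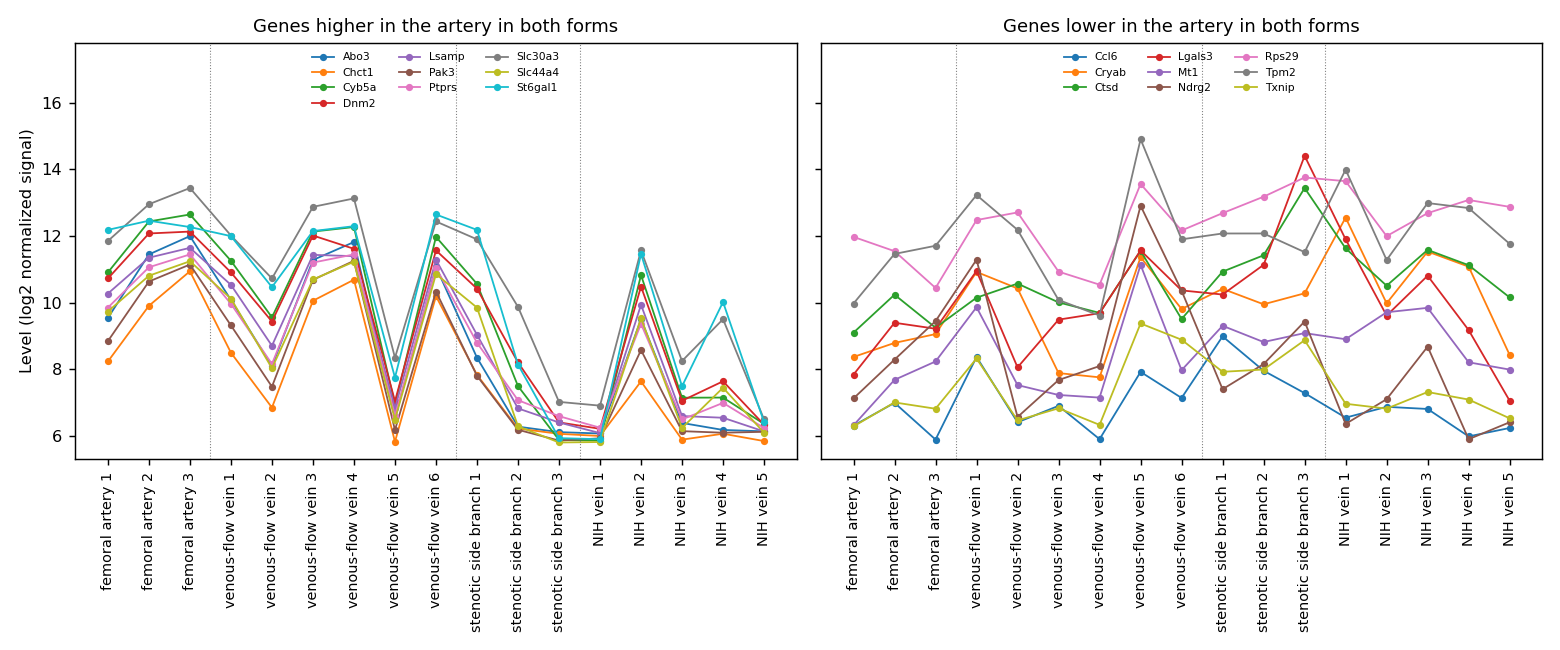
Levels (log2 normalized signal) on all 17 arrays, by the scanner files' groups with dotted lines between them, of the first 10 genes with higher (left) and 9 with lower (right) means in the artery, ordered by the smaller difference of both forms. The left genes run together, low on vein 5 and on most veins with neointimal hyperplasia (NIH), while the right genes follow no single profile.

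Genes of cell maintenance mostly had lower means in the artery with the scanner files, as bright features had in general. Of 33 measured genes of mitochondrial respiration 25 were lower, with a median of -0.44, and of -0.19 without femoral artery 1. The median was -0.05 with the value table samples, and -0.02 without the table's vein 3. Cox6c, a subunit of cytochrome c oxidase, was at 6.64, 8.53 and 8.32 in the arteries and 7.88, 8.98 and 10.53 (lowest, median and highest) in the veins, while Cox6a2, the isoform of heart and skeletal muscle, was at 7.48, 6.65 and 7.26 and 6.54, 6.71 and 6.82, with differences of -1.20 ± 0.58 and 0.45 ± 0.17 (-0.60 and 0.27 without femoral artery 1). The 2 subunits thus had differences of opposite sign. With the value table samples both signs turned, to 0.16 for Cox6c and -0.31 for Cox6a2 (0.45 and -0.30 without the table's vein 3). Ribosomal protein genes had a median of -0.14 (41 of 61 lower) and -0.18 (43 lower) with the value table samples, or -0.07 when the table's vein 3 was left out. These genes have many near-identical copies that a probe may also bind. Immediate early and stress genes had -0.09 and -0.09 (-0.04 without femoral artery 1), with Hspe1, the mitochondrial co-chaperone, lower in all 3 arteries (6.57, 7.43 and 7.44) than in all veins (lowest 7.63). The Hspe1 difference was -0.80, and -0.51 without femoral artery 1. With the value table samples it was 0.07 (0.47 without the table's vein 3).

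Signalling lists held medians near that of all features. TGF-beta and BMP genes had -0.03, Notch, ephrin and semaphorin genes 0.00, angiogenesis and VEGF genes -0.07, chemokines and cytokines -0.10, vasoactive peptides and their receptors 0.03, thrombosis and fibrinolysis 0.06, HOX and positional factors -0.03, and proliferation 0.04. These 8 medians lay between -0.05 and 0.02 without femoral artery 1. Single members stood further out. Psen2, a catalytic subunit of the gamma-secretase that cleaves Notch, was at 6.88, 7.20 and 6.44 in the arteries and 7.10, 8.64 and 9.91 (lowest, median and highest) in the veins, a difference of -1.63 ± 0.61 or 3.10-fold. Id2, a target of BMP signalling that blocks bHLH factors, had -1.55 ± 0.70, and Hif1a, the oxygen-regulated transcription factor, -0.71 ± 0.38. Psen2 and Id2 had 0.23 and -0.01 with the value table samples, and 0.26 and 0.21 without the table's vein 3. F3, tissue factor, the starter of coagulation, lay near the floor in the arteries (5.78, 5.83 and 5.86) and reached 7.13 in vein 5.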

How the data were processed

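Gene expression was measured on 1-colour arrays, 1 for each captured region. The sources used here do not name the scanner, its software or the normalization. The authors deposited for each array the mean spot intensity and the mean local background intensity, neither of them normalized, per the file headers. They also deposited a value table whose values behave as log2 intensities, quantile normalized over the 17 arrays by the look of its nearly equal sorted columns, with values for 10000 spots. Those 10000 spots were analysed. The genes of 3119 spots (31.2%) were named by 1 symbol through the accessions of RefSeq's gene table, and the rest have no name here. The deposited background of these arrays is an average of 2 other arrays' values, so it does not measure the array's own background.

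Signal and background were combined by normexp with an offset of 50, log2 transformed and quantile normalized. Spots of a probe were averaged and a gene was represented by its brightest probe, which left 9446 features, 2878 of them with a symbol. limma 3.58.1 (R 4.3.3) fitted all 17 arrays as groups, with a two-sided test and Benjamini-Hochberg adjustment over all features, called at 0.05. The same fit was run with the samples as the value table names them. Where "value table samples" is written, values are from the scanner files with these names. Python 3.11.15, pandas 2.3.3 and scipy 1.17.1 made the summaries. The fit was tested on simulated data with added changes in 100 features each. It called 65% of changes of 1 log2 unit, 81% of changes of 2 log2 units and 7 of 9246 unchanged features. The simulated noise was independent between features and arrays. In the real data femoral artery 1 stood apart and many features moved together, so the simulation does not give the power here. An SE comes from the spread of all groups, an SD from the arrays of its group, and both are limited by how few arrays there are. No label says whether the arrays of a group come from separate animals.

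Named were the 12 genes per direction with the smallest p (8 per direction with the value table samples), the 3 markers, members of the arterial, venous and lipid lists, up to 3 genes of each other list by p, and up to 10 per direction with a difference of at least 0.5 in both forms. Up to 6 per direction whose groups did not overlap were added by their gap. Of the genes so named, 2 are not reported here. Other members of lists (Pecam1, Cdh5, Kdr, Procr, Clec14a, Dcn, Thy1, Tagln, C1qa, Cd68 and the like) were named as defining markers of their cells. The comparison and its 29 gene lists were chosen with earlier results of these data known. No test was made over a list. Alternatives covered the naming of samples, the background, the scaling, dim features, probes per gene, the groups fitted, the replicate number as a block and each array left out.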

Additional observations from a re-analysis of the deposited data

Results flagged for a closer look

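Of 340 groups of 6 veins, 170 named genes in each of the 2 forms, 23 (6.76%) held 1 array whose gap to the nearest other array passed Dixon's 95% critical value. For genes not chosen on these arrays, chance alone gives about 1 group in 20. The named genes were chosen partly by their values on these arrays. That choice bears on the number of flags and on which arrays carry them. In the value table samples 12 of 15 such arrays were the table's venous-flow vein 4, which is femoral artery 1 of the scanner files and the dimmest of the 9 arrays. Its log2 levels, each against the range of the other 5 veins, were those of Acsl4 (6.77 against 5.66 to 6.02), Alas2 (7.54 against 5.99 to 6.32), B4galnt1 (6.71 against 6.06 to 6.28), Cdh13 (6.05 against 7.13 to 7.73), Csf1r (6.87 against 5.86 to 5.97), Cxcr4 (6.44 against 5.83 to 5.96), Mstn (7.95 against 5.71 to 5.97), Numb (7.75 against 6.17 to 6.57), Or4f7b (6.30 against 5.91 to 6.05), Tnni2 (7.68 against 6.34 to 6.78), Tpm2 (9.97 against 11.46 to 12.07) and Trim17 (7.12 against 6.02 to 6.41). The table's venous-flow vein 3, which the scanner files name stenotic side branch 3, stood apart for Cpe (6.65 against 6.13 to 6.22), Or4f58 (5.80 against 5.90 to 5.94) and Slc2a4 (5.93 against 6.26 to 6.45).

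With the names of the scanner files the other 8 were Cxcr4 on vein 3 (6.09 against 5.90 to 5.97), Ddah1 on vein 2 (8.50 against 6.78 to 7.28), Hspb1 on vein 2 (6.00 against 6.16 to 6.25), Il2ra on vein 3 (6.53 against 5.78 to 5.93), Msln on vein 4 (6.87 against 5.73 to 5.89), Ptgis on vein 3 (6.59 against 5.73 to 5.95), Serping1 on vein 5 (9.89 against 8.46 to 8.86) and Sod1 on vein 5 (10.48 against 7.92 to 8.85). Vein 3 held 3 of them and veins 2, 4 and 5 the rest. No cause was tested.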

How the results depend on the processing

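No feature was called under the main setting or any of the 27 alternatives, and the smallest adjusted p from limma over all settings was 0.0594, from the value table samples without the array they name femoral artery 1. The 464 features with an unadjusted p under 0.05 became 148 with the value table samples, 149 with the value table's own values, 305 without background correction, 85 with median scaling and 252 of the 4723 features with the higher mean. Plain subtraction, the mean of all probes and a fit of only 2 groups gave 492, 463 and 529. Leaving out 1 array gave 129 (without femoral artery 1) to 981 (without femoral artery 2), with 735 without femoral artery 3, 701 without vein 3 and 273 without vein 5. The same in the value table samples, added after seeing the data, gave 85 to 554: 325, 101 and 116 without their arteries 1, 2 and 3, and 127, 110, 85, 554, 235 and 170 without their veins 1 to 6. Replicate numbers 1 to 3 are shared by both groups, and deviations from the group means correlated at 0.231, 0.156 and -0.236 for the 3 numbers. With 1 pair of arrays per number, these values cannot decide whether arrays of the same number come from the same animal. A fit with the replicate number as a block gave 201. Of 170 named genes the difference changed sign for 97 in the value table samples and for 17 without femoral artery 1. The list medians changed sign for 12 of 28 lists in the value table samples. The cause was not tested. Levels near the floor limit what can be seen for dim genes.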
